A study of Mus musculus with 8 samples.

Results

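The genes of potassium channel subunits, taken as every gene whose symbol begins with Kcn, were followed in RNA-seq of whole mouse brain. They numbered 98 of the 34299 genes in the count table. The 98 comprised 29 voltage-gated pore subunits, 10 modifier subunits, 15 inward rectifiers, 14 two-pore subunits, 8 calcium-activated and Slo subunits, 17 accessory genes and 5 non-coding or antisense genes. The brains came from 3 groups. There were 3 wild-type (WT) libraries from fetuses at gestation day 15, 3 libraries from Cav1 knockout (KO) fetuses at gestation day 15, and 2 libraries from KO brains at week 70. Cav1 encodes caveolin 1, the main coat protein of caveolae. The labels describe the knockout only as Cav1 knockout and restrict it to no cell type, and both the day 15 and the week 70 KO groups carry it. Per the labels' protocols, the day 15 groups had 3 biological replicates. For week 70 the labels do not say whether the libraries came from separate animals, and p-values of that comparison then measure only the spread between these libraries, which may be technical. WT brain at week 70 was not analysed here, so the comparison of ages is one within the knockout.

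Potassium channels set the resting potential of neurons and glia, end the action potential and shape its repetition. Voltage-gated channels are tetramers of pore subunits that open on depolarisation, and modifier subunits join such tetramers without forming channels of their own. Inward rectifiers and two-pore channels carry current near rest, calcium-activated channels follow the rise of calcium in a spike, and accessory subunits change the gating or the transport of the pores. In the developing brain many of these genes are switched on as neurons become excitable and as astrocytes begin to take up extracellular potassium.

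The libraries held 14110031 to 20833397 counts, and the 3 KO day 15 libraries were the shallowest. Counts of Cav1 itself were 367, 218 and 329 for fetal WT, 0, 3 and 1 for fetal KO and 1 and 5 for week 70 KO, and no library went against its label. No batch or litter is recorded in the labels, so batch cannot be told apart from genotype or from age. WT replicate 1 stood apart by 49885 counts of Col1a1, a fibroblast collagen, against 1408 and 2623 in the other WT libraries. WT replicate 3 stood apart by 867 counts of Hoxa5, a gene of the hindbrain and spinal cord, against 0 in both other WT libraries, and the KO day 15 libraries held 30, 173 and 1. The week 70 libraries differed in Ttr, a choroid plexus transcript, with 60.0 CPM in replicate 1 and 2263 CPM in replicate 2. Levels are normalised CPM, read counts scaled to a common library size, on 1 TMM scale for the 8 libraries, and levels of different genes are compared only as CPM per kb of exon. Log2 fold changes are given with their standard errors from edgeR's quasi-likelihood test, with p-values adjusted over all genes tested by Benjamini-Hochberg and a threshold of 0.05. Each comparison was scaled on its own libraries, and the common scale shifts log2 differences by -0.039 for genotype and by 0.10 for age.

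The promoters of 4 members that the results turn on are shown first, each as the 250 bases upstream of the RefSeq transcript start on GRCm38.p6, read 5′ to 3′ on the strand of the gene. Kcna3 (ENSMUSG00000047959, chr3:107035912-107036161, plus strand) and Kcna2 (ENSMUSG00000040724, chr3:107101317-107101566, plus strand) are shown because they are neighbours that went in opposite directions with age. Kcnj10 (ENSMUSG00000044708, chr1:172340960-172341209, plus strand) is shown because it was lower in the KO at day 15 and led the inward rectifiers at week 70. Kcnj4 (ENSMUSG00000044216, chr15:79505242-79505491, minus strand) is shown for the largest rise with age among the members. Capitals mark matches, on either strand, to the TATA box (TATAAA), the CCAAT box (CCAAT) and the GC box (GGGCGG).
Kcna3: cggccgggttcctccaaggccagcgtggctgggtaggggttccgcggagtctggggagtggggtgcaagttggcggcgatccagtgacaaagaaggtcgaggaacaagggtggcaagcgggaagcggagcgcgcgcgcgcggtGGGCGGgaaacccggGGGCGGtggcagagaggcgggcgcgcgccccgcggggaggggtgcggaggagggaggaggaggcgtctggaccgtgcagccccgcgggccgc
Kcna2: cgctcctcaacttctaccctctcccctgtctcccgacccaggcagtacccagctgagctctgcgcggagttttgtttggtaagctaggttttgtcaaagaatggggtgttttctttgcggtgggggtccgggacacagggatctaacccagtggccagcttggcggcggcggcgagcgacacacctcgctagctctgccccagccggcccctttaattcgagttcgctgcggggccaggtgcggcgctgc
Kcnj10: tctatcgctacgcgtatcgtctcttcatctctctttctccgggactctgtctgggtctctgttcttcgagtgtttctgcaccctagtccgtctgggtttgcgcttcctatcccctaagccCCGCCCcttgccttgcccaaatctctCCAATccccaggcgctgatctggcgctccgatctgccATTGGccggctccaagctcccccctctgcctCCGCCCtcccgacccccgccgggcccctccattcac
Kcnj4: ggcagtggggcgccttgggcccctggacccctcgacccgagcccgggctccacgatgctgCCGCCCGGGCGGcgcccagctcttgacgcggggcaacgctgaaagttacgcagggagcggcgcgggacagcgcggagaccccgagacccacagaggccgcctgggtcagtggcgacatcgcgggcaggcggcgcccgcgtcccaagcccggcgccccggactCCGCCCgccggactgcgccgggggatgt
The Kcna3 window held 2 GC boxes and 31 CpG, and the Kcna2 window held none of these motifs and 18 CpG. The Kcnj10 window held 4 matches to CCAAT and GC boxes and 17 CpG. The Kcnj4 window held 3 GC box matches and 35 CpG, and 2 of those matches adjoin in 1 capital run. Over the 70 members with a promoter in the RefSeq table, 48.6% of windows held a GC box, against 32.9% of all 27025 promoters. A TATA box stood in 2.86% of the member windows and in 13.0% of all windows, and a CCAAT box in 31.4% and 34.5%. The median number of CpG was 8 for the members and 6 for all promoters, and the median GC content of the windows was 58.8% and 52.0%. The part of base composition in the motif shares was not tested. Only the first listed start of each gene was read. Among the 42 matched members that were higher at week 70, 21 held a GC box, and among the 10 that were lower, 4 did.

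The summed level of each protein-coding class was higher in KO brain at week 70 than at day 15. Potassium channel genes took 0.188 to 0.208% of all counts in WT day 15 libraries, 0.189 to 0.193% in KO day 15 libraries and 0.541 to 0.552% at week 70. The sum over voltage-gated pore genes was 139.4 ± 7.7 CPM per kb for fetal WT and 106.0 ± 2.5 for fetal KO (SD, n = 3 each), and 399.6 ± 19.5 at week 70 (SD, n = 2). Inward rectifiers summed to 23.8 ± 0.48 CPM per kb in WT, 15.8 ± 1.5 in KO at day 15 and 276.3 ± 8.6 at week 70. Modifier subunits summed to 11.6 ± 0.24, 7.50 ± 0.53 and 102.2 ± 5.3 CPM per kb in the same order. These sums are not corrected for transcript length and GC, and the counts of calls by class with that correction are given below. In these 3 classes the KO day 15 libraries lay below every WT library, and the week 70 libraries lay above all 6 day 15 libraries.

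The pore-forming two-pore subunits summed to 26.1 ± 2.2, 19.99 ± 0.44 and 118.6 ± 5.9 CPM per kb in WT day 15, KO day 15 and KO week 70. Accessory genes summed to 43.5 ± 1.1 and 45.6 ± 1.0 CPM per kb at day 15 and to 348.3 ± 7.1 at week 70. Calcium-activated and Slo subunits summed to 23.4 ± 1.2 and 23.3 ± 0.72 CPM per kb at day 15 and to 39.7 ± 0.64 at week 70, the smallest rise among the 6 protein-coding classes. The ranges of the day 15 groups overlapped for the calcium-activated genes only. The two-pore sums were lower in KO in every library, and the accessory sums were slightly higher, with at most 44.4 CPM per kb in a WT library and at least 44.6 in a KO library.

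**Figure D1:**
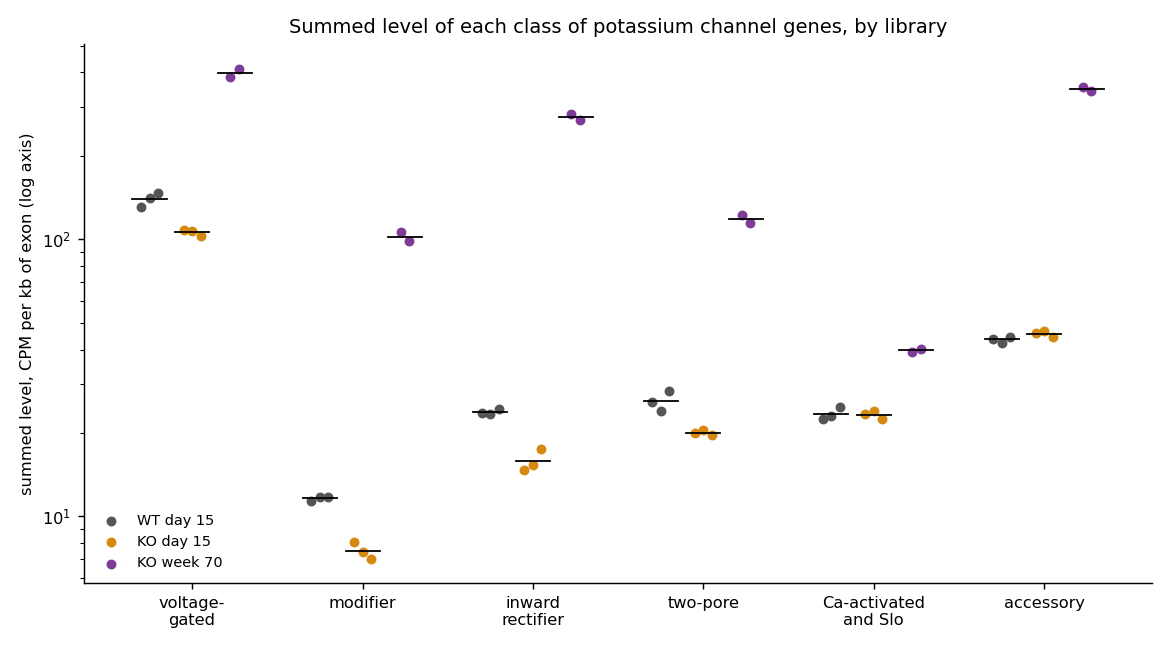
Summed level of each class of potassium channel genes in CPM per kb of exon (log axis), 1 point per library and a bar at the group mean. The week 70 libraries lie above the day 15 libraries in all 6 classes, and the distance is smallest for the calcium-activated and Slo genes.

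The leading gene of a class also differed between the groups. Among voltage-gated genes at week 70, Kcnh3, an EAG-family subunit of forebrain neurons, stood highest at 42.1 ± 7.6 CPM per kb (SD, n = 2), but Kcnc1 and Kcnc4 at 34.5 ± 5.1 and 33.5 ± 9.5 lay within that spread. Inward rectifiers were led by Kcnj11 in WT at day 15 (5.83 ± 0.19 CPM per kb, SD, n = 3), by Kcnj3 in KO at day 15 (3.51 ± 0.42) and by Kcnj10 at week 70 (83.2 ± 3.6). Among two-pore genes Kcnk2 led at day 15 with 7.64 ± 0.071 in WT and 6.23 ± 0.10 CPM per kb in KO, and Kcnk1 led at week 70 with 53.6 ± 5.6. Kcnt1, a sodium-activated Slo subunit, stood first in its class in all 3 groups, at 4.93 ± 0.55, 5.83 ± 0.39 and 11.1 ± 0.63 CPM per kb, although in WT Kcnma1 and Kcnn1 at 4.68 ± 0.53 and 4.62 ± 0.10 were not separated from it. Kcnip3 led the accessory genes at day 15 with 6.48 ± 0.53 in WT and 7.19 ± 0.13 in KO, close to Kcne2 at 6.28 ± 0.53 and 7.02 ± 1.0. Kcnab2 led them at week 70 with 165.7 ± 3.3 CPM per kb, which was 47.6% of the class.

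At day 15, 81 members had enough counts to be tested between KO and WT, and 12 were higher and 30 were lower in KO. The calls made up 51.9% of the members tested, against 62.6% of all 19147 genes tested. By direction, 14.8% of members were higher against 30.1% of all genes, and 37.0% were lower against 32.5%. The median log2 fold change was -0.12 over the members and 0.03 over all genes tested. With upper-quartile scaling, which moves the median of all genes to 0.20, 18 members were higher and 22 were lower.

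The direction of these calls followed the base composition of the transcripts. Over the 78 tested members that are not non-coding or antisense genes, the Spearman correlation of the log2 fold change with the GC content of the longest transcript was -0.554, a description across genes that share the same libraries. The median log2 fold change was 0.17 over the 24 members under 47% GC, -0.27 over the 32 members from 47 to 56% and -0.83 over the 22 members from 56% upward. Length gave a correlation of -0.097. After each library's trend on length and GC over all genes had been entered as an offset, the correlation with GC was -0.038, and 21 members were higher (25.9%, against 26% of all genes) and 14 were lower (17.3%, against 25.1%), while 51.1% of all genes were called. The corrected median of the members was 0.15. Of the 42 uncorrected calls, 20 held with the same direction, 2 turned and 20 were lost. Day 15 differences of members below are therefore given with their corrected value where the correction lost or turned an uncorrected call. Some members gained a call instead. Kcna3 (0.78), Kcnq5 (0.55), Kcnip3 (0.57), Kcnk4 (0.88) and Kcnn3 (0.20) were called higher in KO only after correction.

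Of the 20 calls that held, 14 were lower in KO: Kcnj6, Kcnj10, Kcnj11, Kcnj12, Kcna5, Kcna6, Kcnd2, Kcnh1, Kcnf1, Kcng1, Kcng2, Kcnk3, Kcnk5 and Kcne1l. The other 6 were higher in KO: Kcnc2, Kcnh7, Kcnip1, Kcnu1, Kcnn2 and Kcnt1. The genes Kcna5, Kcng2, Kcnj5, Kcnj12, Kcnk5, Kcnk6, Kcne1l, Kcne4, Kcnmb1, Kcns1 and Kcnc4, here and below, were chosen for mention after their values had been seen.

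**Figure D2:**
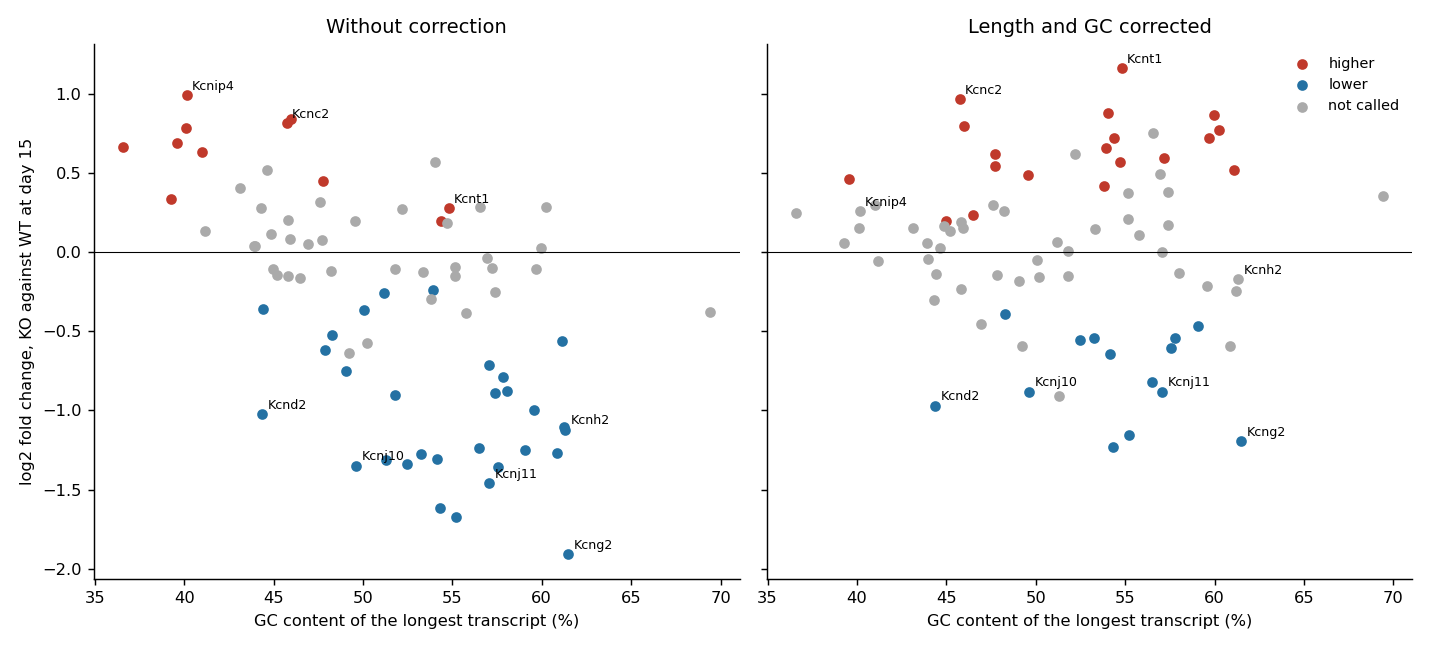
Log2 fold change between KO and WT at day 15 against the GC content of the longest transcript (%), 1 point for each of the 78 tested members of the 6 protein-coding classes, without (left) and with (right) correction for transcript length and GC. Points are coloured by the edgeR call. The uncorrected values decline with GC (Spearman -0.554) and the corrected values do not (-0.038).

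Between KO brains at week 70 and at day 15, 85 members were tested, and 61 were higher and 12 were lower at week 70. These are 71.8% and 14.1% of the members, against 37.6% and 44.4% of all 20000 genes tested, of which 82% were called in either direction. The median log2 fold change was 1.96 over the members and -0.19 over all genes. With the length and GC correction 64.7% of the members were higher (39.6% of all genes) and 16.5% were lower (39.2%), while 78.7% of all genes were called. Counting libraries without a test, 54 of 86 members (62.8%) had both week 70 libraries above all 6 day 15 libraries of either genotype, against 33% of all 21263 genes compared. The opposite order held for 10 members (11.6%), against 39.5% of all genes. The age and genotype comparisons share the KO day 15 libraries. In bulk samples fewer cells of a type and less RNA per cell cannot be told apart.

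**Figure D3:**
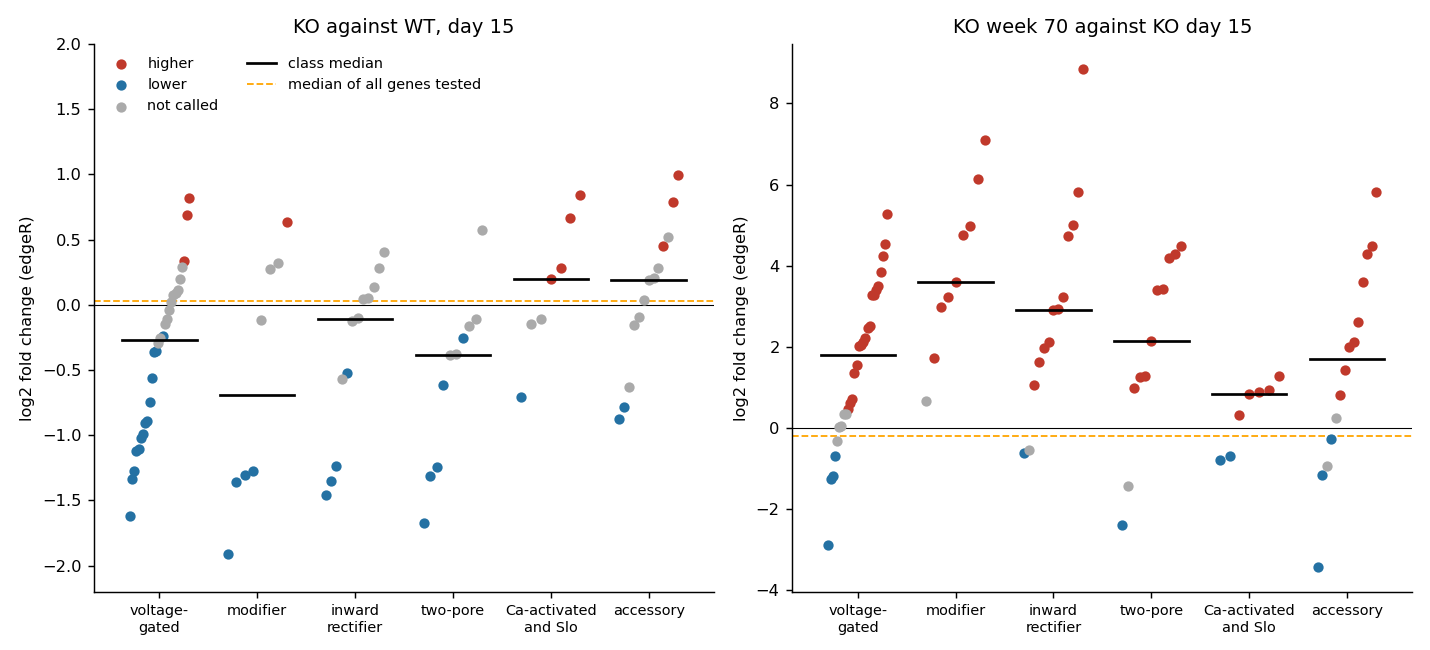
Log2 fold change of each tested member of the 6 protein-coding classes, for KO against WT at day 15 (left) and for KO week 70 against KO day 15 (right, another scale). Red and blue points passed the edgeR test, black bars are class medians and the dashed line is the median of all genes tested. At right the medians of these 6 classes lie above that line, while at left the voltage-gated, modifier, inward rectifier and two-pore medians lie below it.

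Among voltage-gated pore genes, 14 of 28 tested were lower and 3 were higher in KO at day 15, and 4 were lower and 10 were higher after correction. With age 19 of 28 rose and 4 fell. Of all genes tested, 32.5% were lower and 30.1% higher in KO, or 25.1% and 26% after correction. With age 37.6% of all genes rose and 44.4% fell, and these shares also stand beside the class counts below. Shaker-type subunits make the low-threshold channels of axons, and each of their genes that was tested rose with age except for Kcna3. Kcna1 had 7.20, 6.79 and 6.69 CPM in fetal WT brain, 5.10, 4.84 and 5.68 CPM in fetal KO brain and 107 and 106 CPM in week 70 KO brain. The week 70 values were far above both day 15 groups, and the KO day 15 values lay below all WT values. The age difference was 4.25 ± 0.11 (adjusted p = 1.77e-10). The genotype difference was -0.37 ± 0.14 (adjusted p = 0.0469), and it was lost in 5 of the 6 fits that left out 1 library and after correction (-0.05).

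Kcna2, the usual axonal partner of Kcna1, had 26.8, 30.1 and 28.1 CPM in fetal WT brain, 23.7, 26.8 and 24.2 CPM in fetal KO brain and 289 and 320.2 CPM in week 70 KO brain. Its rise with age was 3.51 ± 0.10 (adjusted p = 3.09e-10), and the fetal KO values, just under the WT values, did not pass the test (-0.15 ± 0.088, adjusted p = 0.168). Kcna3, a subunit also known from lymphocytes and microglia, had 18.4, 19.1 and 14.1 CPM in fetal WT brain, 21.2, 19.1 and 21.2 CPM in fetal KO brain and 7.65 and 11.8 CPM in week 70 KO brain. Both week 70 libraries were below all 6 day 15 libraries, and the fall with age was -1.18 ± 0.19 (adjusted p = 0.000167). Between genotypes Kcna3 did not pass the uncorrected test (0.29 ± 0.12, adjusted p = 0.0586) but was called higher in KO after correction (0.78). Kcna3 was thus the Shaker-type gene that fell while Kcna2, 63.1 kb away on chromosome 3, rose, and the promoters printed above are those of this pair.

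Kcna6 had 20.6, 22.5 and 26.1 CPM in fetal WT brain, 9.77, 9.57 and 8.41 CPM in fetal KO brain and 91.2 and 101 CPM in week 70 KO brain. It was lower in KO than in WT, at -1.28 ± 0.12 (adjusted p = 5.56e-06), with a corrected value of -0.54, and it rose with age by 3.28 ± 0.11 (adjusted p = 8.43e-10). No values of the 3 groups overlapped. On GRCm38, 39.6% of the exon bases of Kcna6 lie under an antisense gene, and the use of strand in counting is not given in the sources used here, so its counts may include reads of that gene. Kcna4, an A-type subunit, rose with age by 1.56 ± 0.16 (adjusted p = 6.1e-06) and differed little between genotypes (0.12 ± 0.17, adjusted p = 0.575). Kcna5, which lies with Kcna1 and Kcna6 in 1 cluster on chromosome 6, had 3.70, 2.35 and 2.62 CPM in fetal WT brain, 1.03, 0.724 and 0.986 CPM in fetal KO brain and 6.53 and 1.52 CPM in week 70 KO brain. It was lower in KO at day 15 (-1.62 ± 0.27, adjusted p = 0.000423), but its rise with age of 2.04 rested on week 70 replicate 1 and was 0.64 (adjusted p = 0.247, edgeR) without it.

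The Shab-type gene Kcnb2 encodes a delayed rectifier of neurons. It had 23.8, 27.5 and 27.2 CPM in fetal WT brain, 32.8, 28.9 and 34.6 CPM in fetal KO brain and 18.5 and 24.1 CPM in week 70 KO brain. Kcnb2 was higher in KO at day 15 (0.34 ± 0.10, adjusted p = 0.0113) but not after correction (0.06). Its fall with age (-0.69 ± 0.14, adjusted p = 0.000933) turned into a rise of 0.77 with the correction, so its direction with age depends on the processing.

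The Shaw-type genes Kcnc1, Kcnc2 and Kcnc4, whose channels allow fast-spiking neurons to repolarise quickly, rose with age. The log2 differences were 2.52 for Kcnc1, 2.21 for Kcnc2 and 3.84 for Kcnc4, with corrected values from 1.62 to 2.79. At day 15 they did not move together. Kcnc2 had 14.2, 14.4 and 17.7 CPM in fetal WT brain, 24.3, 27.8 and 27.4 CPM in fetal KO brain and 120.1 and 144 CPM in week 70 KO brain. Every KO day 15 library exceeded every WT library, and the genotype difference was 0.82 ± 0.11 (adjusted p = 9.28e-05), the largest rise of the class, with a corrected value of 0.97. Kcnc1 was lower in KO, at -0.89 ± 0.11 (adjusted p = 5.6e-05), with 89.1 to 112 CPM in WT and 44.9 to 61.0 CPM in KO, but its corrected value was 0.17 and not called.

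The Shal-type genes encode the A-type channels of dendrites. Kcnd2 had 40.3, 43.7 and 50.7 CPM in fetal WT brain, 22.4, 23.1 and 18.9 CPM in fetal KO brain and 93.7 and 108 CPM in week 70 KO brain. The KO day 15 values were all below the WT values and the week 70 values above both. The genotype difference was -1.02 ± 0.11 (adjusted p = 1.28e-05), hardly altered by the correction (-0.97), and the age difference was 2.13 ± 0.11 (adjusted p = 2.39e-08). Kcnd3 had 90.0, 95.0 and 105 CPM in fetal WT brain, 52.8, 51.8 and 63.2 CPM in fetal KO brain and 58.5 and 94.2 CPM in week 70 KO brain. It was lower in KO at day 15 (-0.75 ± 0.089, adjusted p = 3.55e-05) but not after correction (-0.18), and it did not pass the test with age (0.35 ± 0.17, adjusted p = 0.0867). At day 15 the level of Kcnd3 per kb exceeded that of Kcnd2 in WT, at 10.1 against 8.71 CPM per kb.

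Among the KCNQ genes, Kcnq3, an M channel subunit that restrains repetitive firing, was lower in KO at day 15 (-0.36 ± 0.082, adjusted p = 0.00329, corrected -0.14 and not called) and rose with age by 0.62 ± 0.10 (adjusted p = 0.000155). Kcnq5 had 10.8, 8.84 and 10.6 CPM in fetal WT brain, 9.77, 10.1 and 11.1 CPM in fetal KO brain and 104 and 112 CPM in week 70 KO brain, a rise with age of 3.28 ± 0.10 (adjusted p = 5.75e-10). Kcnq1, the cardiac and epithelial member, stayed at 0.421 to 1.20 CPM in all 8 libraries.

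Of the EAG family, Kcnh3 had 12.3, 14.1 and 12.4 CPM in fetal WT brain, 7.16, 5.68 and 4.70 CPM in fetal KO brain and 274 and 211 CPM in week 70 KO brain. It was lower in KO at day 15, at -1.11 ± 0.16 (adjusted p = 0.000139, corrected -0.25, not called), and its rise with age of 5.28 ± 0.16 (adjusted p = 5.81e-10) was the largest of the voltage-gated genes. Kcnh1 had 9.26, 9.14 and 11.3 CPM in fetal WT brain, 4.07, 3.78 and 3.60 CPM in fetal KO brain and 96.8 and 92.0 CPM in week 70 KO brain. It was lower in KO, at -1.34 ± 0.15 (adjusted p = 2.29e-05), with a corrected value of -0.55, and rose with age by 4.53 ± 0.11 (adjusted p = 1.42e-10). Kcnh2, the ERG channel, was lower in KO at day 15 (-1.12 ± 0.11, adjusted p = 9.03e-06) and higher with age (1.35 ± 0.14, adjusted p = 6e-06), and both calls were lost with the correction, at -0.17 and 0.09. Kcnh7, another ERG gene, was higher in KO at day 15, with 74.4, 75.5 and 95.4 CPM against 48.7, 55.3 and 52.0 CPM (0.69 ± 0.10, adjusted p = 0.00015, corrected 0.47). Kcnh8 fell with age from 9.40, 7.12 and 8.64 CPM to 1.12 and 1.31 CPM (-2.88 ± 0.27, adjusted p = 3.11e-06), the largest fall of the class.

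Modifier subunits included 8 of 9 tested genes that rose with age and none that fell. At day 15, 1 of 8 (12.5%) was higher and 4 (50%) were lower in KO, against 30.1% and 32.5% of all genes. Of those 4, 3 stayed lower after correction. Kcnf1, which associates with Shab-type pores, had 11.5, 12.5 and 14.4 CPM in fetal WT brain, 5.28, 5.57 and 4.29 CPM in fetal KO brain and 151 and 142 CPM in week 70 KO brain. The 3 groups did not overlap, and the differences were -1.30 ± 0.15 (adjusted p = 2.64e-05) for genotype (corrected -0.64) and 4.76 ± 0.11 (adjusted p = 1.42e-10) for age. Kcng1 had 18.7, 19.4 and 18.6 CPM in fetal WT brain, 8.07, 6.18 and 7.31 CPM in fetal KO brain and 23.9 and 27.0 CPM in week 70 KO brain, lower in KO, at -1.36 ± 0.12 (adjusted p = 3.59e-06, corrected -0.61) and higher with age by 1.73 ± 0.16 (adjusted p = 2.11e-06). Kcnv1 went the other way at day 15, with 7.999, 10.04 and 8.15 CPM in fetal WT brain, 13.9, 12.8 and 12.9 CPM in fetal KO brain and 126 and 100.1 CPM in week 70 KO brain. It was higher in KO by 0.64 ± 0.13 (adjusted p = 0.00139), not called after correction (0.30), and rose with age by 2.99 ± 0.11 (adjusted p = 2.66e-09).

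Kcns2 did not pass the test between genotypes (-0.11 ± 0.18, adjusted p = 0.594) and rose with age by 3.24 ± 0.13 (adjusted p = 3.34e-09). Kcng4 had 0.374, 0.300 and 0.252 CPM and 0.243, 0.111 and 0 CPM in the day 15 groups and 18.5 and 17.9 CPM at week 70. Its log2 difference of 7.10 with age was 8.04 without KO day 15 replicate 1. Kcns1 was lower in KO at day 15, at -1.27 ± 0.45 (adjusted p = 0.0301), a call lost in 4 of the 6 fits that left out 1 library, with values from -1.86 to -0.94 over the fits, and also lost with the correction (-0.59). Kcng2 had 1.87, 1.55 and 2.01 CPM in WT and 0.607, 0.668 and 0.116 CPM in KO at day 15, a difference of -1.91 ± 0.43 (adjusted p = 0.00276).

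Inward rectifiers were lower in KO at day 15 in 4 of 12 tested genes (33.3%, against 32.5% of all genes) and higher in none. The same 4 were lower after correction, when 1 other was higher. With age 11 of 13 rose and 1 fell. Kcnj10 encodes the channel with which astrocytes clear potassium. It had 18.3, 17.7 and 21.9 CPM in fetal WT brain, 6.31, 7.90 and 7.89 CPM in fetal KO brain and 463 and 436 CPM in week 70 KO brain. The 3 groups were separate, with the KO day 15 libraries lowest. The genotype difference was -1.35 ± 0.13 (adjusted p = 9.07e-06, corrected -0.88) and the age difference was 5.83 ± 0.12 (adjusted p = 7.69e-11). Kcnj16, its partner in astrocytes, had 0.842, 0.849 and 1.71 CPM in fetal WT brain, 1.94, 0.835 and 1.62 CPM in fetal KO brain and 53.4 and 46.8 CPM in week 70 KO brain. The day 15 groups overlapped (0.41 ± 0.39, adjusted p = 0.385) and the rise with age was 5.00 ± 0.22 (adjusted p = 7.18e-09).

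Markers of astrocytes were read in the same libraries. Their sum was lower in KO at day 15, as Kcnj10 was, while Kcnj16 was not called there, and all rose with age. Of 7 astrocyte markers, 4 were lower and 1 was higher in KO at day 15 and 7 rose with age. Of all genes 32.5% were lower and 30.1% higher in KO, and 37.6% rose with age. After correction the marker called higher in KO was Gfap (0.94) in place of Aqp4 (0.47). The summed level of the 7 was 443 to 506 CPM in WT, 213 to 218 in KO at day 15 and 6690 to 7176 at week 70. None of the 7 was at 0 in every library of a group, although the water channel gene Aqp4 stood at 2.06 to 2.87 CPM in WT. The part of astrocyte number in the values of Kcnj10 and Kcnj16 was not tested. Kcnj9, 11.9 kb from Kcnj10 on chromosome 1, did not pass the test between genotypes (-0.10 ± 0.14, adjusted p = 0.556) without correction, while its neighbour did.

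The genes of the G protein-gated channels, which carry the slow inhibition by neurotransmitters, were Kcnj3, Kcnj5, Kcnj6 and Kcnj9. Kcnj9 had 6.92, 6.79 and 7.70 CPM in fetal WT brain, 5.76, 6.79 and 6.84 CPM in fetal KO brain and 196 and 172 CPM in week 70 KO brain, a rise with age of 4.73 ± 0.11 (adjusted p = 1.41e-10). With the correction it was higher in KO at day 15 (0.60). Kcnj3 rose with age from 17.2, 17.0 and 20.8 CPM to 129 and 164 CPM (2.90 ± 0.13, adjusted p = 7.85e-09), and an antisense gene covers 31.1% of its exon bases. Kcnj6 was lower in KO at day 15, with 4.61, 4.95 and 4.81 CPM against 6.32, 7.54 and 7.39 CPM (-0.52 ± 0.15, adjusted p = 0.0114, corrected -0.39), and rose with age by 2.13 ± 0.15 (adjusted p = 3.15e-07). Kcnj5 had 1.27, 1.34 and 2.03 CPM in KO at day 15 and 1.06 and 1.24 CPM at week 70, below each of them. It did not pass the test with age (-0.53 ± 0.41, adjusted p = 0.249, corrected -0.91, not called). Between genotypes it did not pass either (-0.57 ± 0.27, adjusted p = 0.0843). Kcnj3, Kcnj6 and Kcnj9 thus rose with age while Kcnj5 did not, and only Kcnj6 passed the uncorrected test between genotypes.

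Kcnj4, a strong rectifier of forebrain neurons, was counted 21, 24 and 8 times in fetal WT, 2, 5 and 8 times in fetal KO and 2398 and 1980 times at week 70. It did not enter the test between genotypes because of these low counts. The rise with age of 8.85 ± 0.20 (adjusted p = 1.15e-10) was the largest among the 85 members tested. Kcnj2, another strong rectifier, did not pass the test at day 15 (0.13 ± 0.15, adjusted p = 0.452) and rose with age by 1.96 ± 0.15 (adjusted p = 4.37e-07). Its neighbour Kcnj16, 38.2 kb away on chromosome 11, also rose.

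The ATP-sensitive channels, which couple metabolism to excitability, combine the pores Kcnj11 or Kcnj8 with the sulfonylurea receptors Abcc8 or Abcc9. Kcnj11 had 20.8, 21.3 and 22.2 CPM in fetal WT brain, 7.22, 6.90 and 8.59 CPM in fetal KO brain and 78.9 and 74.0 CPM in week 70 KO brain. The KO day 15 values were below all WT values, the difference of -1.46 ± 0.11 (adjusted p = 1.52e-06) was the largest fall of the class, and its corrected value was -0.88. The rise with age was 3.24 ± 0.12 (adjusted p = 1.91e-09). Abcc8, the usual partner of Kcnj11, had a log2 difference of 0.00 at day 15 (corrected 0.85, called higher) and fell with age by 0.47. Kcnj8, the vascular pore, did not pass the test at day 15 (-0.12 ± 0.16, adjusted p = 0.51), while Abcc9 differed by -1.51.

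With age Kcnj8 fell by 0.62 ± 0.22 (adjusted p = 0.0226), the single fall of the class, and the call was lost in each of 3 fits that left out 1 library, with values from -0.66 to -0.52. Pericyte and smooth muscle markers, which share the vessel wall with Kcnj8, summed to 229 to 291 CPM in WT, 150 to 160 in KO at day 15 and 281 to 316 at week 70. At day 15, 6 of 7 tested were lower in KO, against 32.5% of all genes. None of the 8 was at 0 in every library of a group, and their part in the value of Kcnj8 was not tested.

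Kcnj13, an epithelial rectifier of the choroid plexus, was counted 28, 22 and 26 times in fetal WT, 8, 24 and 33 times in fetal KO and 16 and 106 times at week 70. Its rise with age (1.63 ± 0.69, adjusted p = 0.0494) turned to -0.34 (adjusted p = 0.642, edgeR) without week 70 replicate 2 and was not called in any of the 3 fits without a KO day 15 library. That week 70 replicate is the library that also held the Ttr transcripts. The list of 6 choroid plexus markers summed to 381 to 490 CPM in WT, 347 to 434 in KO at day 15, and 72.6 and 2403 in the week 70 libraries. Gigyf2, on the opposite strand, covers 49.1% of the exon bases of Kcnj13. None of the 6 markers was at 0 in every library of a group. The part of either in the count of Kcnj13 was not tested.

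Two-pore genes, the leak channels, were lower in KO at day 15 in 5 of 10 tested (50%, against 32.5% of all genes) and higher in none. After correction 2 were lower and 2 were higher. With age 9 of 11 rose and 1 fell. Kcnk1 had 6.78, 5.25 and 8.30 CPM in fetal WT brain, 6.67, 6.34 and 5.34 CPM in fetal KO brain and 129 and 111 CPM in week 70 KO brain, with overlapping day 15 groups (-0.11 ± 0.19, adjusted p = 0.631) and a rise with age of 4.19 ± 0.12 (adjusted p = 3.6e-10). Kcnk10, a mechanosensitive channel of the TREK group, had 50.1, 58.4 and 52.5 CPM in fetal WT brain, 43.6, 46.3 and 50 CPM in fetal KO brain and 7.85 and 11.1 CPM in week 70 KO brain. It did not pass the uncorrected test between genotypes (-0.16 ± 0.082, adjusted p = 0.108) and was called higher in KO after correction (0.24), and its fall with age (-2.40 ± 0.15, adjusted p = 1.35e-07) was the single fall of the class. Kcnk2 and Kcnk4, of the same group, rose with age by 1.28 ± 0.14 and 3.42 ± 0.18. Kcnk10 was second in the class per kb in both day 15 groups, at 6.12 CPM per kb in WT and 5.32 in KO.

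Kcnk3, an acid-sensitive TASK channel, had 8.89, 8.39 and 12.3 CPM in fetal WT brain, 4.12, 4.29 and 3.71 CPM in fetal KO brain and 47.2 and 45.0 CPM in week 70 KO brain. The groups did not overlap, the genotype difference was -1.25 ± 0.18 (adjusted p = 0.000136, corrected -0.46) and the age difference was 3.41 ± 0.13 (adjusted p = 2.52e-09). Kcnk9, the related TASK gene, was counted 676, 701 and 1185 times in fetal WT and 449, 538 and 396 times in fetal KO. The high WT value belonged to replicate 3, the library with the most Hoxa5 counts, and the highest KO value to replicate 2, which had the most Hoxa5 counts of the KO libraries. Without WT replicate 3 the difference of -0.62 ± 0.21 (adjusted p = 0.0256) became -0.29 (adjusted p = 0.0574, edgeR). The call was also lost without KO replicate 1 or 3, at -0.64 and -0.51, and with the correction (-0.14). Whether tissue of the hindbrain or spinal cord takes part in these values was not tested.

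Kcnk13, a leak channel of microglia, rose with age from 0.728, 0.890 and 0.928 CPM to 19.3 and 22.2 CPM (4.50 ± 0.21, adjusted p = 1.3e-08), the largest rise of the class. The 6 microglia markers summed to 36.5 to 64.2 CPM in WT, 21.96 to 24.8 in KO at day 15 and 339 to 419 at week 70. All 6 rose with age, against 37.6% of all genes, and none was at 0 in every library of a group. Their part in the value of Kcnk13 was not tested. Kcnk5 and Kcnk6 were lower in KO at day 15, at -1.67 ± 0.32 (adjusted p = 0.00106) and -1.32 ± 0.47 (adjusted p = 0.0312). Both were highest in WT replicate 1, with 94 and 86 counts, against 44 to 51 and 23 to 33 in the other WT libraries. Without that library Kcnk6 was at -0.64 (adjusted p = 0.176, edgeR), and its call was also lost without KO replicate 1 or 3 and with the correction (-0.91). The 6 fibroblast and meninges markers summed to 290 to 4408 CPM in WT, 56.2 to 125 in KO at day 15 and 69.9 to 91.1 at week 70, with the highest value in WT replicate 1, and none was at 0 in every library of a group. Their part in these values was not tested.

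Calcium-activated and Slo genes were higher in KO at day 15 in 4 of 7 tested (57.1%, against 30.1% of all genes) and lower in 1. After correction 4 were higher and none lower. With age 5 of 7 rose and 2 fell, but after correction 2 rose and 3 fell. Kcnma1, the pore of the large-conductance BK channel, had 69.2, 82.4 and 86.6 CPM in fetal WT brain, 67.8, 70.3 and 71.8 CPM in fetal KO brain and 178 and 190.1 CPM in week 70 KO brain. The day 15 groups overlapped (-0.14 ± 0.085, adjusted p = 0.164) and the rise with age was 1.30 ± 0.083 (adjusted p = 1.34e-07), the largest of the class. The small-conductance SK genes, which contribute to the afterhyperpolarisation, differed among themselves. Kcnn1 had 20.7, 21.1 and 21.7 CPM in fetal WT brain, 13.2, 14.1 and 10.5 CPM in fetal KO brain and 23.8 and 27.8 CPM in week 70 KO brain, lower in KO, at -0.71 ± 0.12 (adjusted p = 0.000343), a call lost with the correction (3.3e-05), and higher with age by 0.93 ± 0.15 (adjusted p = 0.000236, corrected 0.04, not called). Kcnn3 fell with age, from 36.2, 38.6 and 35.9 CPM to 25.7 and 23.4 CPM (-0.68 ± 0.10, adjusted p = 0.000127).

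Kcnn2 was higher in KO at day 15 by 0.20 ± 0.079 (adjusted p = 0.0456), a call lost in each of the 6 fits that left out 1 library, and its corrected value was 0.72. With age its rise of 0.32 ± 0.11 (adjusted p = 0.0235) turned to -0.32 with the correction. Kcnn4, the intermediate-conductance gene of blood and epithelial cells, had at most 11 counts in a library and was not tested. Kcnt1 had 43.5, 44.0 and 52.8 CPM in fetal WT brain, 58.1, 56.8 and 51.2 CPM in fetal KO brain and 110.0 and 102 CPM in week 70 KO brain. It was higher in KO by 0.28 ± 0.086 (adjusted p = 0.0155), a call lost without WT replicate 1 or 2 or KO replicate 1 or 2, with a corrected value of 1.17, and it rose with age by 0.83 ± 0.089 (adjusted p = 8.14e-06), a call lost with the correction (0.07). Kcnt2, the other sodium-activated gene, was higher in KO at day 15 (0.66 ± 0.12, adjusted p = 0.000535, corrected 0.25, not called) and rose with age by 0.90 ± 0.13 (adjusted p = 8.02e-05). Kcnu1, the Slo gene known from sperm, had 3.65, 3.05 and 3.52 CPM in fetal WT brain, 5.95, 6.40 and 5.51 CPM in fetal KO brain and 2.97 and 4.48 CPM in week 70 KO brain, higher in KO by 0.84 ± 0.16 (adjusted p = 0.00116, corrected 0.80).

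Of the accessory genes, 3 of 13 tested (23.1%) were higher and 2 (15.4%) were lower in KO at day 15, against 30.1% and 32.5% of all genes. After correction 2 were higher and 1 was lower, and with age 9 of 14 rose and 3 fell. The 3 beta subunit genes of Shaker-type channels all rose with age. Kcnab2 had 28.4, 29.4 and 28.5 CPM in fetal WT brain, 15.5, 15.5 and 14.7 CPM in fetal KO brain and 911 and 937 CPM in week 70 KO brain. The 3 groups were separate, the age difference of 5.82 ± 0.10 (adjusted p = 4.44e-11) was the largest of the class, and the genotype difference of -0.88 ± 0.081 (adjusted p = 5.22e-06) was not called after correction (-0.13). Kcnab1 rose with age by 4.48 ± 0.14 (adjusted p = 5.85e-10) and Kcnab3 by 3.61 ± 0.16 (adjusted p = 6.66e-09), and neither passed the test between genotypes.

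The Kcnip genes encode the calcium-binding partners of the Shal-type pores. Kcnip1 had 29.7, 30.9 and 36.6 CPM in fetal WT brain, 41.9, 40.8 and 46.6 CPM in fetal KO brain and 35.8 and 41.4 CPM in week 70 KO brain. It was higher in KO at day 15 by 0.45 ± 0.095 (adjusted p = 0.00186, corrected 0.62), and its fall with age (-0.26 ± 0.11, adjusted p = 0.0453) was lost in 4 of the 5 fits that left out 1 library. Kcnip2 rose with age from 9.04, 7.96 and 6.79 CPM to 205 and 129.8 CPM (4.30 ± 0.19, adjusted p = 7.35e-09), Kcnip3 by 2.61 ± 0.091 (adjusted p = 1.44e-09) and Kcnip4 by 1.99 ± 0.13 (adjusted p = 1.63e-07). Kcnip4 had the largest rise in KO at day 15 of the class (0.99 ± 0.13, adjusted p = 8.28e-05), with 15.9, 14.4 and 14.8 CPM against 6.92, 7.19 and 9.15 CPM, and it was not called after correction (0.26). At day 15 Kcnd2 was thus lower and Kcnip1 higher in KO in both fits.

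Kcne2, a small subunit of choroid plexus and stomach channels, was counted 259, 218 and 204 times in fetal WT, 175, 255 and 214 times in fetal KO, and 0 and 203 times at week 70. The 0 of week 70 replicate 1 allows up to 0.198 CPM, for counting error only, and it is the library with the lower choroid plexus sum. The age difference (-0.93 ± 0.84, adjusted p = 0.321) did not pass the test, and it was 0.09 without that library. The part of choroid plexus in the value of Kcne2 was not tested. Kcnmb4, the neuronal beta subunit of BK channels, rose with age by 0.81 ± 0.16 (adjusted p = 0.00079), and antisense genes cover 20.8% and 10.7% of its exon bases. Kcnrg, a regulator that binds Shaker-type pores, fell with age from 5.04, 3.90 and 5.51 CPM to 0.0660 and 0.897 CPM (-3.42 ± 0.58, adjusted p = 0.000276), a value that ranged from -6.12 to -2.50 with 1 or the other week 70 library left out. Kcne4 rose with age by 1.43, but by 0.78 (adjusted p = 0.223, edgeR) without week 70 replicate 1, and its call was also lost without KO day 15 replicate 3.

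**Figure D4:**
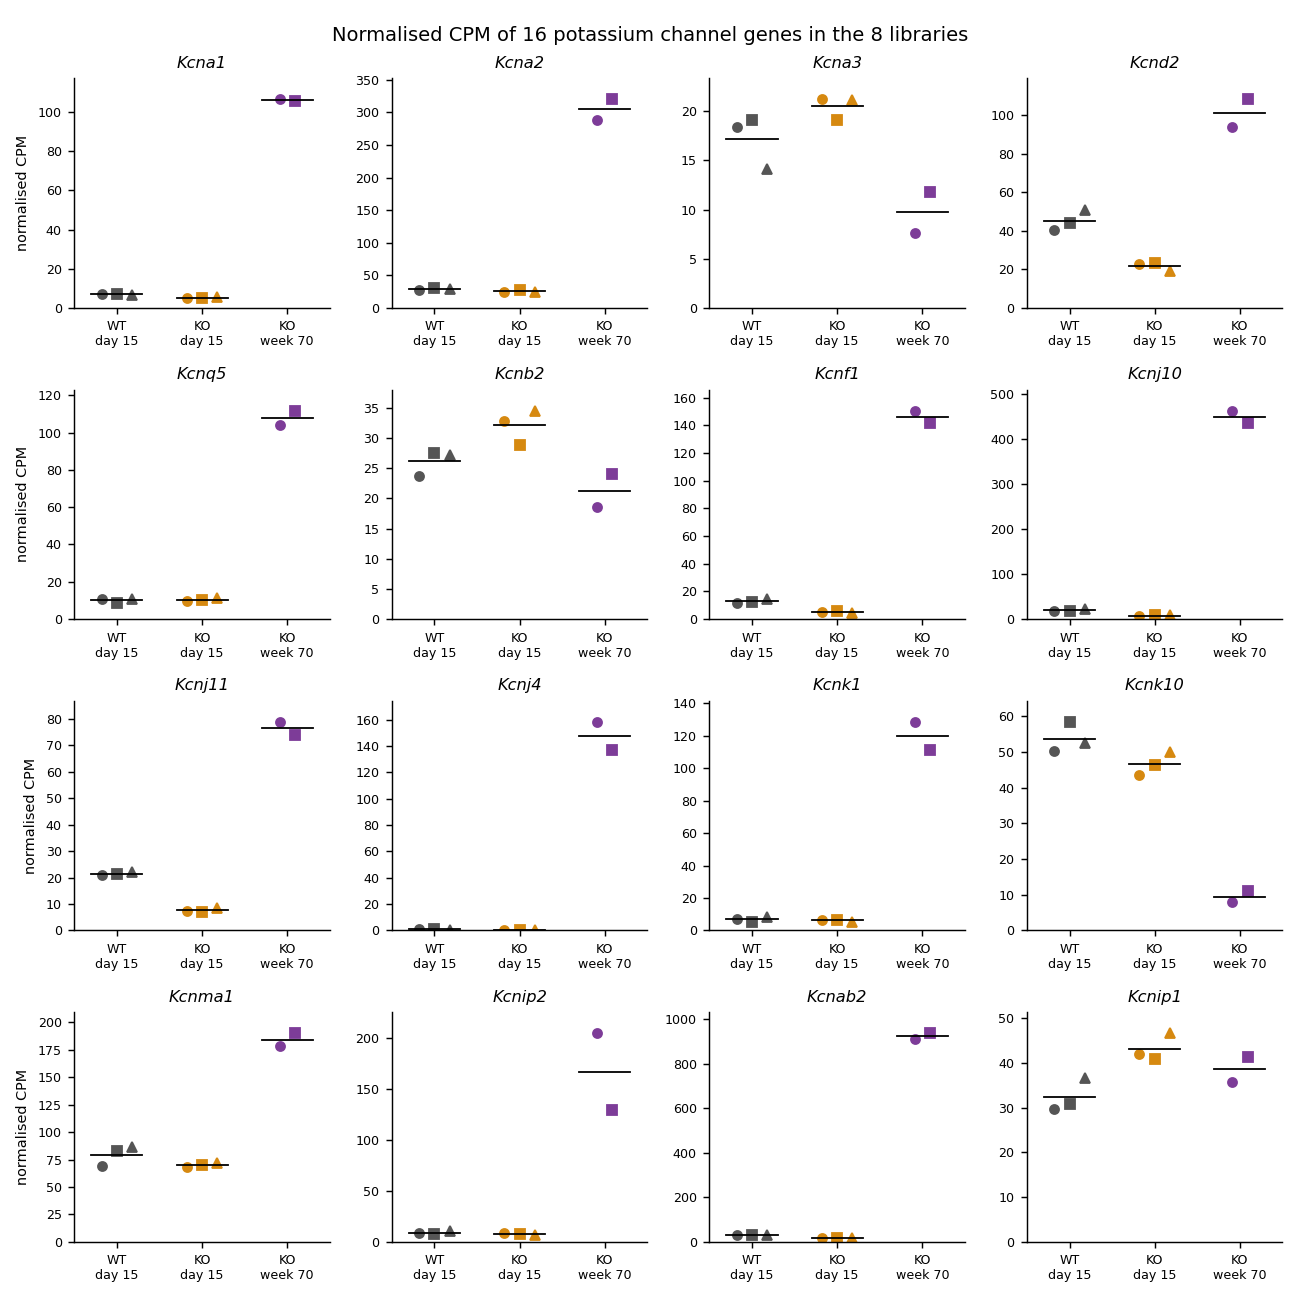
Normalised CPM (linear axes from 0, a scale per gene) of 16 potassium channel genes in the 8 libraries, 1 symbol per library and a bar at the group mean. Kcna3, Kcnb2 and Kcnk10 are lower at week 70 than in KO at day 15, Kcnip1 overlaps, and the other 12 genes are higher.

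Among the non-coding and antisense genes, Kcnq1ot1, the imprinted antisense transcript of the Kcnq1 locus, had 51.3, 52.7 and 46.8 CPM in fetal WT brain, 89.7, 86.0 and 117 CPM in fetal KO brain and 8.44 and 11.4 CPM in week 70 KO brain. The KO day 15 libraries were all above WT (1.00 ± 0.11, adjusted p = 2e-05) and the week 70 libraries below both (-3.40 ± 0.18, adjusted p = 3.29e-08). The genotype call was lost with the correction (0.17), and the fall with age was smaller (-0.65). The transcript shares 121 exon bases with Kcnq1, which are 0.13% of the exon bases of Kcnq1ot1 and 2.96% of those of Kcnq1. Reads within these shared bases cannot be told apart without strand. Kcnmb4os2 had the highest level per kb of its class in all 3 groups, at 1.99 ± 0.40, 2.03 ± 0.084 and 1.57 ± 0.54 CPM per kb, and did not pass the uncorrected test in either comparison. After correction it was called higher in KO at day 15 (0.66) and lower at week 70 (-1.48). On GRCm38, 33 of the 98 members share exon bases with another gene, and 7 share over 20% of theirs. The 13 members tested in neither comparison had at most 11 counts in any library.

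Genes that work with potassium channels were followed as 3 lists. Of the 6 genes of the sodium-potassium pump, which builds the gradient the channels use, 5 were lower in KO at day 15 and 6 rose with age, with medians of -1.32 (corrected -0.73) and 4.57, against medians over all genes of 0.03 and -0.19. Of 4 HCN genes, which encode the hyperpolarisation-activated channels related to voltage-gated potassium channels, 3 were lower in KO at day 15 and 2 rose and 2 fell with age. After correction Hcn4 alone of the 4 was lower in KO (-0.86), Hcn2 went from -0.98 to -0.05 and Hcn3 from -0.65 to 0.11, and the median of the 4 went from -0.82 to -0.07. Hcn2 had 13.5, 12.9 and 22.03 CPM in WT, 8.92, 8.35 and 6.56 CPM in KO at day 15 and 448 and 422 CPM at week 70, while Hcn4 went from 64.9, 66.7 and 73.6 CPM through 19.8, 18.8 and 16.2 CPM to 4.09 and 6.83 CPM. Of the channel partners not named Kcn, such as the Shal-type partners Dpp6 and Dpp10 and the scaffolds Dlg1, Dlg2 and Dlg4, 5 of 18 tested were higher and 9 lower in KO at day 15, and 13 of 19 rose and 2 fell with age. After correction 7 were higher and 5 lower in KO, and their median went from -0.20 to 0.11. Over all genes tested at day 15, 30.1% were higher and 32.5% lower without correction, and 26% and 25.1% with it. With age 37.6% of all genes rose and 44.4% fell. Dpp6 differed by -1.06 ± 0.084 (adjusted p = 1.64e-06, edgeR) at day 15, as Kcnd2 did, and Dpp10 by 0.33 ± 0.13 (adjusted p = 0.0427, edgeR), a call lost with the correction (0.07).

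Cell type markers shifted in the same libraries. The 8 neuronal markers summed to 3879 to 4346 CPM in WT, 3027 to 3104 in KO at day 15 and 9052 to 9355 at week 70. The 7 markers of oligodendrocytes summed to 99.9 to 112, 82.3 to 86.2 and 13520 to 13660 CPM, and the 7 progenitor markers to 1135 to 1268, 439 to 475 and 207 to 218 CPM, in the same order. All 7 progenitor markers were lower in KO than in WT at day 15, against 32.5% of all genes. After correction 5 were lower, against 25.1% of all genes, and Pax6 (0.08) and Hes5 (-0.19) were not called. None of these markers was at 0 in every library of a group, and how far cell composition enters the values of the potassium channel genes was not tested.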

How the data were processed

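RNA-seq libraries of whole mouse brain were grouped by their labels as WT day 15 (n = 3), KO day 15 (n = 3) and KO week 70 (n = 2). Per the labels' protocols, mRNA was selected with oligo-dT and cDNA was primed with random hexamers. The authors deposited raw read counts per gene, and the submitters' processing notes name FastQC, cutadapt, Trimmomatic, HISAT2, featureCounts and edgeR, and both GRCm38 and GRCm39. The annotation, strandedness and multi-mapping rules of the counting are not given in the sources used here.

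Differences were tested on the counts by edgeR 4.0.16 under R 4.3.3 (filterByExpr, TMM, two-sided quasi-likelihood F-test, Benjamini-Hochberg over all genes, threshold 0.05). Each comparison was fitted on its own groups, with no block for the replicate number. No 2 libraries of a group agreed within sampling noise, with chi-square values per gene from 3.2 to 21.5. Exon length, GC content and overlaps came from GENCODE release 21 of the mouse series on GRCm38, which matched 97.3% of gene identifiers. The correction smoothed each library's deviation on length and GC with mgcv 1.9.3. Alternatives were upper-quartile or RLE scaling, no filter, a mean of at least 10 counts, DESeq2 1.42.0, all 8 libraries in 1 fit, the block, the correction with and without it, and each library left out. A count of 0 allows up to 3 counts, for counting error only. The scripts were tested on simulated counts.

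The members and lists were chosen with earlier results of these data known. Named genes were a list of 56 members, and, per class, the largest rise and fall among called genes with a mean of at least 50 counts and no overlap of groups, and the highest level per kb in each group. Some members under this rule are not reported here. Other named members were chosen after their values were seen. RefSeq promoters matched 70 members. No protein sequence was used here.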

Additional observations from a re-analysis of the deposited data

How the results depend on the processing

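The calls in either direction over the members stayed within 1.5 times of the reported counts under each alternative run, from 30 to 44 at day 15 and from 64 to 73 with age. The counts by direction at day 15 did not: 21 members were higher and 14 lower with the length and GC correction, and 19 were higher and 11 lower with the correction and the replicate block. The numbers of the replicates did not pair the libraries. The deviations of same-numbered WT and KO libraries at day 15 correlated at -0.146, -0.199 and -0.176, and those of KO libraries of both ages at 0.032 and 0.006. With the replicate block alone 40 members were called at day 15 and 69 with age.

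Class sums, as log2 ratios in the order voltage-gated, modifier, inward rectifier, two-pore, calcium-activated and Slo, accessory, were -0.39, -0.63, -0.59, -0.38, -0.0052, 0.068 between genotypes as reported, -0.28, -0.52, -0.48, -0.27, 0.11, 0.18 with RLE scaling and -0.20, -0.43, -0.40, -0.19, 0.19, 0.26 with upper-quartile scaling. Between ages they were 1.91, 3.77, 4.13, 2.57, 0.77, 2.93 as reported, 1.81, 3.67, 4.03, 2.46, 0.67, 2.83 with RLE and 1.58, 3.43, 3.79, 2.23, 0.43, 2.60 with upper-quartile scaling. The sums were not run with the length and GC correction. Only the genotype ratio of the calcium-activated and Slo sum changed its sign, from near 0.

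Log2 differences between genotypes whose sign turned with the length and GC correction were, under it, Kcna2 0.20, Kcnab1 -0.045, Kcnab3 0.21, Kcnc1 0.17, Kcne2 -0.23, Kcnip2 0.37, Kcnj13 -0.45, Kcnj2 -0.056, Kcnj8 0.15, Kcnj9 0.60, Kcnk1 0.0090, Kcnk10 0.24, Kcnk13 0.11, Kcnk2 0.065, Kcnma1 0.14, Kcnmb4 -0.30, Kcnn1 3.3e-05, Kcnn3 0.20, Kcnq1 0.50, Kcns2 0.26. With the replicate block added they were Kcna2 0.19, Kcnab1 -0.049, Kcnab3 0.19, Kcnc1 0.18, Kcne2 -0.24, Kcnip2 0.38, Kcnj13 -0.55, Kcnj2 -0.054, Kcnj8 0.16, Kcnj9 0.59, Kcnk1 0.025, Kcnk10 0.24, Kcnk13 0.13, Kcnk2 0.065, Kcnma1 0.14, Kcnmb4 -0.30, Kcnn3 0.20, Kcnq1 0.53, Kcns2 0.27. Between ages the signs turned for Kcnb2 0.77, Kcnn2 -0.32, Kcnq1 -0.39 with the correction and for Kcnb2 0.76, Kcnn1 -0.026, Kcnn2 -0.27, Kcnq1 -0.56 with the block added. With upper-quartile scaling they turned for Kcna2 0.026, Kcnab3 0.019, Kcnip2 0.077, Kcnj8 0.049, Kcnj9 0.071, Kcnk1 0.063, Kcnk10 0.011, Kcnma1 0.030, Kcnn3 0.066, Kcnq1 0.14, Kcns2 0.057 between genotypes and for Kcnh7 -0.20 between ages. Without a filter they turned for Kcnab1 -0.053, Kcnh8 -0.0045, Kcnj13 -0.037, Kcnj3 -0.050, Kcnmb4os2 -0.017, Kcnq5 -0.015, in 1 fit of all 8 libraries for Kcnab1 -0.00064, and with the replicate block alone for Kcnj13 -0.046. Of these genes, Kcnc1, Kcnk2 and Kcnn1 between genotypes and Kcnb2, Kcnn1 and Kcnn2 between ages had passed the test, and the cause was not tested.

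With 1 library left out, signs turned within the ranges Kcna4 -5.5e-05 to 0.31, Kcnab1 -0.056 to 0.15, Kcnab3 -0.34 to 0.030, Kcnh8 -0.012 to 0.18, Kcnip2 -0.21 to 0.044, Kcnj13 -0.38 to 0.42, Kcnj3 -0.059 to 0.083, Kcnk1 -0.27 to 0.053, Kcnmb4os2 -0.11 to 0.16, Kcnq1 -0.40 to 0.30, Kcnq5 -0.015 to 0.11, Kcns2 -0.23 to 0.022 between genotypes and Kcnd3 -0.033 to 0.66, Kcne2 -10.72 to 0.085, Kcnh7 -0.011 to 0.18, Kcnj13 -0.34 to 2.45 between ages, and only Kcnj13 between ages had passed the test. Genes with few counts, such as Kcnj4 at day 15, are limited by depth. Kcne2 at week 70 was counted 0 and 203 times in libraries of 20203233 and 18924304 counts.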

Other observations

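Further marker lists were read in the same libraries, as values with no test of their part in the potassium channel genes. The 5 erythroid markers summed to 710 to 804 CPM for fetal WT, 2501 to 3054 for fetal KO and 405 to 696 at week 70. The 6 endothelial markers summed to 181 to 249, 51.3 to 66.9 and 290 to 317 CPM in the same order. All 6 were lower in fetal KO, against 32.5% of all genes. The 5 markers of oligodendrocyte precursors summed to 94.2 to 129, 37.0 to 50.1 and 509 to 514 CPM. Markers of skeletal muscle, retina and pituitary reached at most 39.4, 4.28 and 56.8 CPM in a library.

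Neighbouring members did not always move together. Kcna5, Kcna1 and Kcna6 lie within 1 cluster on chromosome 6 with gaps of 105.0 and 61.9 kb, and all were lower in fetal KO and higher at week 70 before correction. The genotype call of Kcna1 was lost with the correction and in 5 of 6 fits that left out 1 library, and the age call of Kcna5 without week 70 replicate 1. Kcnip1 and Kcnmb1 overlap on chromosome 11, and Kcnmb1 rose with age (log2 2.11 ± 0.52). The level of Kcnmb1 was low, with a mean of 12.6 counts over the libraries of that comparison, and it was not tested between genotypes. Kcnip1 had -0.26 ± 0.11 with age, with overlapping groups and a call lost in 4 of the 5 fits that left out 1 library.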
